A study of Rattus norvegicus with 8 samples.

Results

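Heat shock proteins and chaperonins are the cell's protein-folding machinery, and 57 of them were measured in the hippocampus of young adult rats that had received fluoxetine or vehicle as pups. They are the genes whose name on the array, with any suffix removed, begins with Hsp, Dnaj or Cct followed by a digit. The rule took 71 of 15207 probes and 57 of the 11717 genes named on the array, which were split into HSP90 (2 genes), HSP70 with its relative Hsph1 (13), HSP40 (24), small heat shock proteins (7), the chaperonin CCT (7) and 4 others. The others were Hspd1, Hspe1, Hspbp1, a nucleotide exchange factor of HSP70, and Tmem132a. Tmem132a is present under an older name as a binding partner of Hspa5, and is not itself a heat shock protein.

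The study compared whole hippocampi of 2 month old rats. The group called PNFLX (4 samples) had been given 10 mg/kg of fluoxetine, an antidepressant that blocks serotonin reuptake, from postnatal day 2 to day 21. The control group (4 samples) had been given the vehicle, sucrose solution at 5%, over the same days. These days are those of the treatment protocol, while most descriptions of single samples name a later last day, later for PNFLX than for control samples. RNA of each sample was read on an Agilent array of its own, in 1 colour. The labels do not say that each sample came from a separate animal, so the p-values measure the spread between these samples.

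The 75th percentile of signal lay between 654 and 941 on the 8 arrays, and 70.5% to 77.9% of probes were well above background. All 8 arrays shared 1 slide, with PNFLX in one row of it and control in the other, so position on the slide and group cannot be told apart. All 8 neuronal markers on the array were well above background on every array. Of these, 2 were higher and 6 lower in PNFLX (median log2 difference -0.15). Of 8 markers of hippocampal granule and pyramidal neurons, 6 were higher and 2 lower (median 0.08). Markers of oligodendrocytes were lower in PNFLX for 10 of 11 genes (median log2 difference -0.27, mean level 1.34 to 1.74 in PNFLX and 1.64 to 2.03 in control). Markers of meninges and fibroblasts were higher for 9 of 11 (median 0.43, mean level -0.73 to 0.49 in PNFLX and -1.14 to -0.27 in control), and none of these oligodendrocyte or meningeal markers passed the test. An unadjusted limma p under 0.05 was reached by 3 of the 11 meningeal markers, all higher, against 5.05% of all features. With the median of each spot row and column subtracted, the median was -0.14 for oligodendrocytes and 0.20 for meninges and fibroblasts. It was 0.02 for neurons and 0.13 for granule and pyramidal neurons. Of 10 endothelial markers tested, 4 were higher and 6 lower, and 1 passed (limma adjusted p = 0.0318). All 4 erythrocyte markers tested were higher (median 0.27). The mean level of 7 choroid plexus and ependyma markers ran from -3.79 to -2.19 in PNFLX and from -4.09 to -0.38 in control. What part these cell types had in the chaperone values was not tested. In whole tissue, fewer cells of a type and less RNA per cell cannot be told apart.

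HSP70 proteins bind unfolded stretches of other proteins and release them through cycles of ATP use, which HSP40 (J-domain) proteins start and nucleotide exchange factors close. HSP90 finishes the folding of signalling proteins, among them the glucocorticoid receptor, and the double-ring chaperonin CCT folds actin and tubulin. Small heat shock proteins hold unfolded proteins without using ATP. In neurons these proteins also serve the synapse, where Dnajc5 with Hspa8 keeps the release machinery folded and Dnajc6 with Hspa8 strips the clathrin coat from vesicles. Under stress the factor Hsf1 binds repeated elements in the promoters of many of these genes and raises their transcription.

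Stretches with the letters of such elements can be read in the reference promoters of the genes measured here, and are shown as matches of letters. RefSeq promoters of build GRCr8 (250 bases before to 50 bases after the transcription start) were matched for 46 of the 57 genes. An element of at least 3 alternating units, GAA and TTC separated by 2 bases each, was found in 6 of the 46 (13.0%, Wilson 95% interval 6.12% to 25.7%), against 0.798% of all 33469 promoters. The 6 genes were Cct4, Dnaja1, Hspa8, Hspd1, Hspe1 and Hsph1. The stretches follow 5′ to 3′ on the strand of each gene, with the element in capitals.
Hspa8, element starting 55 bases before the start, chr8:50080451-50080480 (+): cggaacccTTCTGGAAGGTTCtaagacagg
Hspa8, element starting 213 bases before the start, chr8:50080293-50080322 (+): gcgagcgtGAAAGTTCCAGAAcgctgcggt
Hsph1, element starting 36 bases before the start, chr12:10427324-10427353 (+): gccgcagaTTCTGGAAAGTTCtcctcagta
Hspe1, element of 4 units starting 65 bases before the start, chr9:64084256-64084285 (+): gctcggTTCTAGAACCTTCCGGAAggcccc
Dnaja1, element starting 9 bases after the start, chr5:60638405-60638434 (+): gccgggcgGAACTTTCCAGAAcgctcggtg
Cct4, element starting 25 bases after the start, chr14:101193074-101193103 (+): gcgtcgctTTCTGGAAGGTTCgtggaggcg
Hspd1 and Hspe1 are divergent neighbours on chromosome 9. The element of 4 units counted for Hspd1 is the same stretch read on the other strand, 242 bases before the start of Hspd1.

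The shorter form, 2 units (GAANNTTC or TTCNNGAA, which the longer element also contains), was present in 17 of the 46 promoters (37.0%, 24.5% to 51.4%), against 15.9% of all promoters. Dnajb1 and Hspb1 held the shorter form without the longer, and the heat-inducible Hspa1a held neither. Hsp90aa1 and Hspa1b were among the genes without a matched promoter. A missing match holds for this pattern and window alone. CCAAT on either strand was present in 21 (45.7%, 32.2% to 59.8%), against 37.5% of all. TATAAA on either strand was present in 4 (8.70%, 3.43% to 20.3%), against 14.2% of all. A match of letters is a description of the reference and not a binding site.

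The comparison of PNFLX with control asks whether the adult hippocampus carries a different set of chaperone transcripts after fluoxetine in early postnatal life. Values are log2 signals relative to the array's 75th percentile, with the brightest probe standing for a gene, and a log2 difference is PNFLX minus control. Of the 57 genes 55 were well above background on at least 4 arrays and could be tested. Hspa1b, a heat-inducible HSP70, passed the scanner's well-above-background flag on 0 arrays, and Hspa1l on 1 PNFLX array.

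One of the 55 chaperones, the chaperonin subunit gene Cct6a, passed an adjusted p of 0.05 in limma. Its probe met the filter only through the 4 PNFLX arrays on which it was well above background, so its call describes that choice and supports nothing further. Across all 9484 genes and unnamed probes tested, 52 passed, or 0.548%, with 20 of these in the first 5 spot rows of the array and 12 in the last 5. At an unadjusted p under 0.05, 2 chaperones were higher in PNFLX (Cct6a and Dnajc9), where 5.05% of all features were, and 3 were lower (Hsp90ab1, Dnaja3 and Dnajc5), where 7.7% of all features were. The groups did not overlap for 2 that were higher (Cct6a, and Hsp90aa1 with 1 usable control), against 4.45% of all features. They did not overlap for 4 that were lower (Hsp90ab1, Dnaja3, Dnajc5 and Dnajc18), against 6.57% of all features.

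The chaperones were close to the array as a whole. Their median log2 difference was -0.03 and that of all features was -0.03. They were lower in PNFLX for 34 of 55 genes (61.8%, against 54.4% of all features) and higher for 21, a split that turned to 21 lower and 34 higher when the median of each spot row and column was subtracted on every array. The difference lay within 0.5 log2 for 89.1% of the chaperones, against 81.5% of all features, and within 0.25 log2 for 70.9%, against 54.8%. The chaperones were also measured more precisely, with a median SE of 0.18 against 0.21 for all features. What part this had in their narrower spread was not tested. Each gene was measured to a median of ±0.42 log2 at the 95% level, and the 95% interval included 0 for 50 of the 55 genes. For 41 of all 55 tested genes at least 1 alternative setting gave the opposite sign. The setting without scaling between arrays left only 6 chaperones lower in PNFLX.

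**Figure D1:**
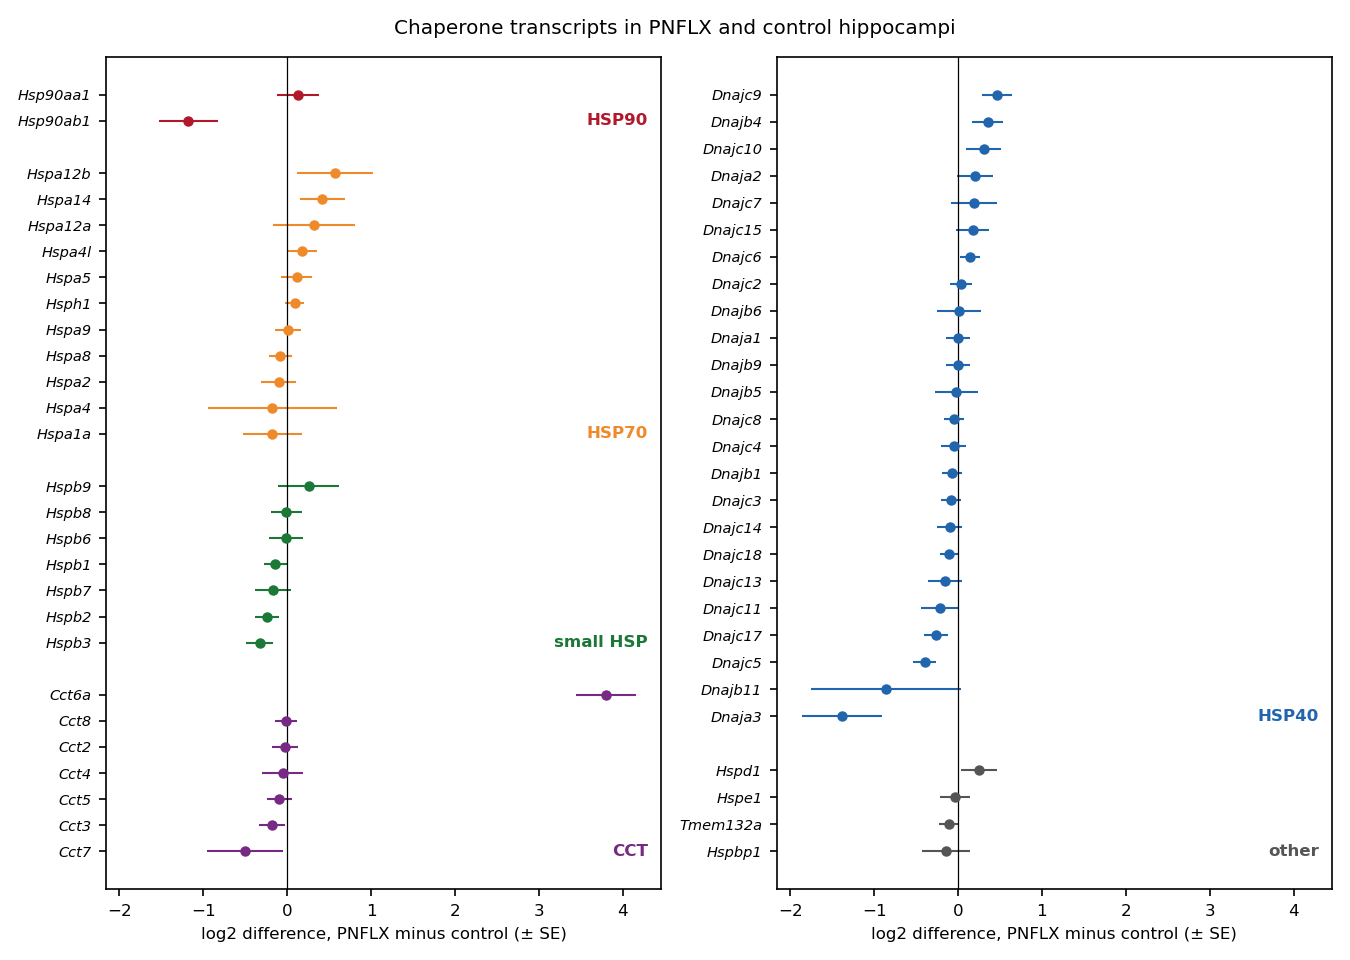
Log2 difference between PNFLX and control (points) with its standard error (bars) for the 55 tested chaperone genes, grouped by family. Cct6a lies at 3.80, Dnaja3 at -1.38 and Hsp90ab1 at -1.18, and 49 of the 55 genes lie within 0.5 of zero.

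The cytosolic HSP90 genes, Hsp90aa1 (the stress-inducible alpha form) and Hsp90ab1 (the constitutive beta form), gave no call. The brightest Hsp90ab1 probe read 5.79, 5.49, 5.64 and 5.78 in PNFLX samples 1 to 4. It read 6.37, 7.80 and 6.39 in control samples 1 to 3, and the spot of control 4 was excluded by the scanner's outlier flag. Every PNFLX value was below every control value, and control 2 stood well above the others. The log2 difference was -1.18 (SE 0.35, n = 4 and 3, limma adjusted p = 0.235), and without control 2 it was -0.70 (SE 0.17, adjusted p = 0.213). With normexp background correction it was 0.61 (SE 0.36, adjusted p = 0.515). That fit started from scanned brightness, so it also left out the scanner software's division described below.

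This Hsp90ab1 probe lay in spot row 7, near the first edge of the array, and the array carried 3 more Hsp90ab1 probes in rows 68, 111 and 135. Their sequences are shown because these probes, named for the same gene, gave different values. Coordinates are those of the files (rat build rn4).
Hsp90ab1, row 7, chr9:11033336-11033395 (+): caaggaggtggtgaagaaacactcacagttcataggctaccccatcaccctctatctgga
Hsp90ab1, row 68, chr3:36531857-36531913 (+): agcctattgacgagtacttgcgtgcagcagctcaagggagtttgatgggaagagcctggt
Hsp90ab1, row 111, chr9:11035001-11035060 (+): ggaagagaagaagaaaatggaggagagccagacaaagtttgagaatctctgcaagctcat
Hsp90ab1, row 135, chr9:11033270-11033329 (-): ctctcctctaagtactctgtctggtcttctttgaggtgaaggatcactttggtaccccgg
The probe in row 68 is placed by the files on chromosome 3, away from the other three, and the probe in row 135 runs in the opposite orientation to the 2 others on chromosome 9. Only the row 111 probe shares both chromosome and orientation with the row 7 probe, and which transcripts the probes in rows 68 and 135 read was not tested. The difference was -0.11 (SE 0.17) in row 68, -0.02 (SE 0.20) in row 111 and -0.27 (SE 0.16) in row 135. All 3 of these differences were smaller in size than that of the row 7 probe.

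The scanner software divides each spot by a factor that models smooth brightness trends over the array, and the sign of the row 7 value differed with and without this step. The scanned brightness of the spot was 43689, 40997, 47207 and 54343 in PNFLX and 32072, 36456, 34196 and 24114 in control. These values are not scaled between arrays, and the 75th percentile of signal was also higher on 3 of the 4 PNFLX arrays than on every control array. The factor was 0.855, 0.966, 1.08 and 1.06 in PNFLX and 0.548, 0.185, 0.533 and 0.465 in control. After division, the processed signal of control 2 was 196291. In that array the factor of this spot was 0.185 where the median of its row was 0.581. With the division undone, an alternative chosen after seeing the data, the log2 difference of Hsp90ab1 was 0.19 (SE 0.14, adjusted p = 0.504).

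**Figure D2:**
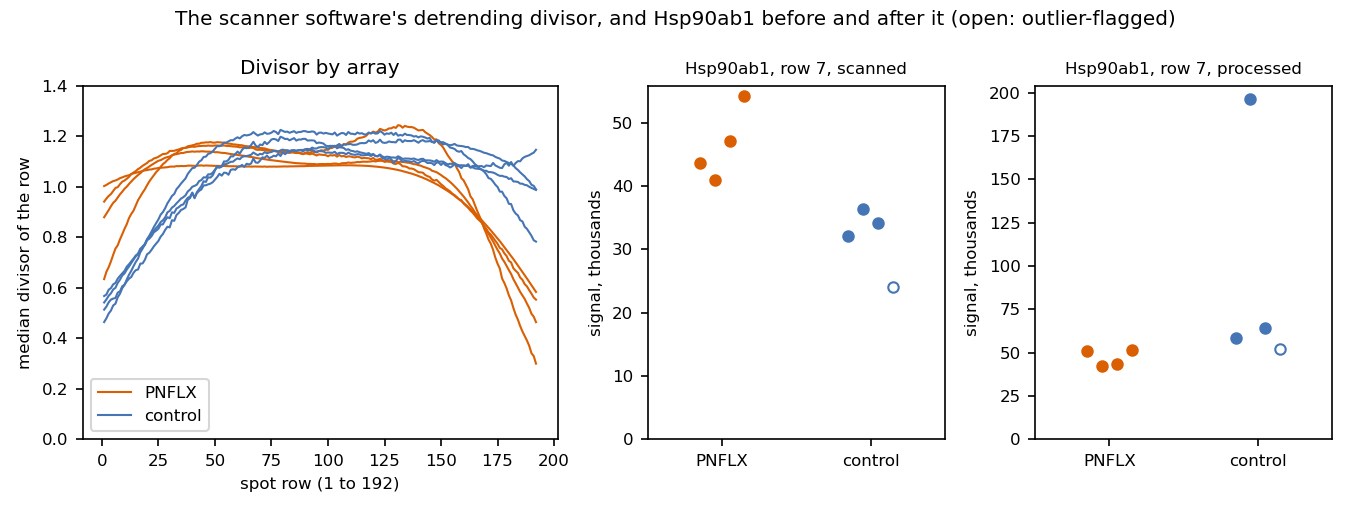
Left, the median factor by which the scanner software divided the spots of each row, first to last, 1 line per array. Middle and right, the Hsp90ab1 spot of row 7 as scanned and after processing, in signal units, 1 point per array with the outlier-flagged control 4 open; PNFLX is above control as scanned, without scaling between arrays, and below the 3 controls that entered the test as processed.

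The factor differed between the groups at both ends of the array. In row 1 its median was 0.634 to 1.00 on PNFLX arrays and 0.464 to 0.567 on control arrays. In the last row it was 0.299 to 0.583 on PNFLX arrays and 0.783 to 1.15 on control arrays. Of the 55 tested chaperones, 18 had mean factors that differed between the groups by over 0.25 log2, and undoing the division turned the direction of 17. It raised the number of calls over the whole array to 406 (4.28%). Among the chaperones the 1 gene called was again Cct6a, whose probe met the filter only through PNFLX arrays.

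Hsp90aa1 lay in row 12, and 3 of its 4 control spots were excluded by the outlier flag. It read 5.02, 5.07, 5.05 and 5.38 in PNFLX, against 5.00 in control 2, the control spot that was left. The difference was 0.13 (SE 0.25, adjusted p = 0.847, n = 4 and 1), where the lone control is assumed to vary like the other samples. With flagged spots kept it was 0.79 (SE 0.25, adjusted p = 0.238), and with the division undone it was 1.1 (SE 0.27, adjusted p = 0.109). The scanned brightness was 29118 to 41829 in PNFLX and 6632 to 14383 in control. These values are likewise not scaled between arrays.

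The array names 7 subunits of the chaperonin ring by the prefix Cct and the alpha subunit as Tcp1. Cct6a (the zeta subunit) was the 1 chaperone called. Its probe spans chr12:27859814-27859949 (+) in rn4, and is shown because it carries that call.
Cct6a, row 1: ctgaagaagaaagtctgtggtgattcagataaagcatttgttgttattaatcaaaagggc
It read -2.76, -3.33, -3.33 and -3.21 in PNFLX samples 1 to 4 and -6.03, -7.72, -6.68 and -7.40 in control samples 1 to 4. The groups were far apart, and no control spot was well above background. The fitted log2 difference of 3.80 (SE 0.36, limma adjusted p = 0.00566) was taken against control values at background. As a floor, the lowest signal well above background on each control array was taken, or the probe's own signal where that was higher. The PNFLX mean was 7.60-fold above this floor. This is not a lower bound on the difference. The value does not take out the shift of its spot row and did not hold under the other settings given next. The probe also met the filter only through PNFLX arrays.

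The Cct6a spot lay in the outermost row of the array, where most probes were higher in PNFLX. Of the 38 features in row 1, 34 had higher values in PNFLX, the median over the row was 1.14 log2, and Cct6a was second highest. The test called 8 of these 38 features. The scanned brightness of its spot was 128 to 149 in PNFLX and 45.9 to 60.5 in control. On the control arrays it was close to background, and 3 of the 4 background-subtracted control values were below 0. After subtraction of row and column medians the difference was 2.82 (SE 0.36, adjusted p = 0.0217). With normexp background correction, which models faint signal together with background, it was 0.04 (SE 0.70, adjusted p = 0.973). That fit started from scanned brightness, added an offset of 50 and left out the software's division. It therefore changed more than the background model. Over all alternatives that tested Cct6a the limma adjusted p ran between 0.000613 and 0.973. The lower end came with the division undone (difference 4.35). How the division is undone was checked only on spots whose low signal the software had not replaced. No second Cct6a probe was on the array.

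None of the other subunits passed the test. Cct2, Cct3, Cct4, Cct5, Cct7 and Cct8 were all slightly lower in PNFLX, between -0.02 and -0.50 (limma adjusted p = 0.650 to 0.966), but after subtraction of row and column medians Cct2 (0.10), Cct4 (0.06) and Cct8 (0.01) were higher. The subunits stand in fixed proportion within each ring. Cct8 (theta) read 4.35, 4.44, 4.54 and 4.65 in PNFLX and 4.59, 4.40, 4.64 and 4.43 in control, a difference of -0.02 (95% interval -0.31 to 0.28). Cct5 (epsilon) differed by -0.09 (-0.43 to 0.25), Cct2 (beta) by -0.03 (-0.40 to 0.34) and Cct4 (delta) by -0.05 (-0.61 to 0.50). Cct7 (eta) differed by -0.50 (-1.53 to 0.52), with PNFLX 3 at 0.08 and the other PNFLX samples at 1.66 to 2.35, and by -0.02 without PNFLX 3. Tcp1 (alpha) differed by 0.14 (SE 0.22, adjusted p = 0.812). The intervals of Cct2, Cct4, Cct5 and Cct8 kept within 1 log2 of zero, and that of Cct7 did not.

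Cct3 (gamma) was on 4 probes, of which 2 were well above background on all arrays. The brightest, in row 145, gave -0.18 (SE 0.16, adjusted p = 0.650). Of the other three, the probe in row 70 gave -1.47 (SE 0.44) with 1 array well above background, the probe in row 101 gave -0.48 (SE 0.38) and the probe in row 124 gave 0.32 (SE 0.43) with no array well above background. The probes in rows 70 and 101 run in the opposite orientation to the brightest one.

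**Figure D3:**
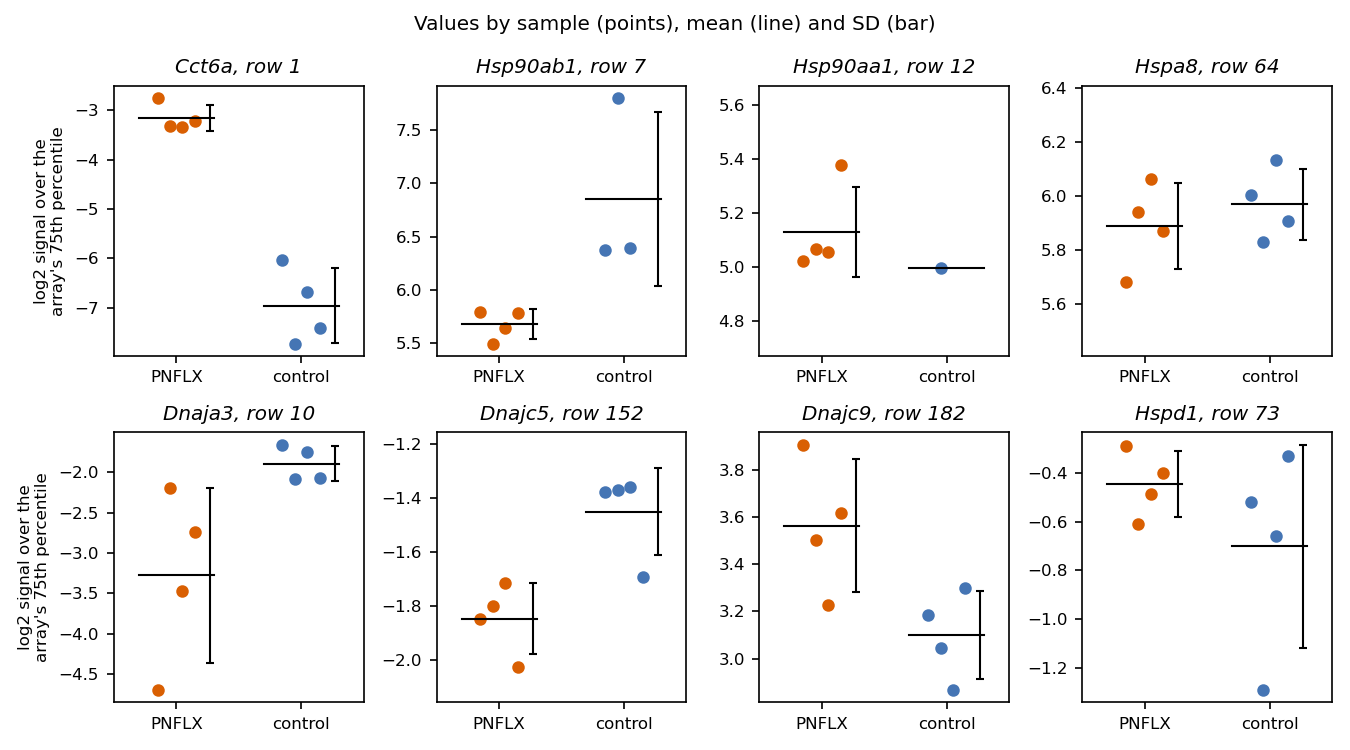
Log2 signal over the array's 75th percentile in each PNFLX and control sample (points), with the group mean (line) and SD (bar), for 8 chaperone genes; the spot row stands in each title. Cct6a, Hsp90ab1, Dnaja3 and Dnajc5 do not overlap between groups, Hspa8, Dnajc9 and Hspd1 do, and Hsp90aa1 has 1 usable control.

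None of the 11 tested HSP70 and HSP110 genes passed the test or reached an unadjusted p of 0.05, with 7 higher and 4 lower in PNFLX and a median log2 difference of 0.09. Hspa8, the constitutive cytosolic HSP70 of the synapse, read 5.68, 5.94, 6.06 and 5.87 in PNFLX and 6.0, 5.83, 6.13 and 5.91 in control. These values overlapped, with a difference of -0.08 (95% interval -0.39 to 0.23, adjusted p = 0.824). The spot was saturated on 2 PNFLX and 2 control arrays, and a second Hspa8 probe without saturation gave -0.03 (SE 0.17). Hsph1, the HSP110 nucleotide exchange factor, differed by 0.09 (-0.18 to 0.35), and Hspa4l, another HSP110, by 0.18 (-0.23 to 0.59).

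Hspa1a, the classical heat-inducible HSP70, read -2.14, -2.51, -2.46 and -3.91 in PNFLX and -2.63, -2.44, -2.70 and -2.55 in control. PNFLX 4 was the low sample, and the difference was -0.18 (-0.98 to 0.63, adjusted p = 0.854), or 0.21 without PNFLX 4. Hspa1b is a near-identical neighbouring copy, so signal of the pair may be shared between probes. Hspa9, the HSP70 of mitochondria, differed by 0.01 (-0.34 to 0.37). Hspa14, a ribosome-associated HSP70, differed by 0.42 (-0.20 to 1.04), with PNFLX 4 at 3.14 and the other PNFLX samples at 2.17 to 2.24. The distant relatives Hspa12a (0.32, SE 0.49) and Hspa12b (0.57, SE 0.45, row 181) varied widely between samples.

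Hspa5 (BiP), the HSP70 of the endoplasmic reticulum, was printed as the same oligonucleotide of 60 bases on 5 spots in different rows. The log2 difference was 0.04 in row 59, 0.07 in row 69, 0.04 in row 109, 0.11 in row 153 and 0.18 in the fifth row from the last edge. The SE was 0.15 to 0.19 in the 4 inner rows and 0.30 in the outer row, where control 1 was excluded by the outlier flag. In row 109 the PNFLX samples read 4.28, 4.28, 4.31 and 4.71 and the control samples 4.45, 4.25, 4.35 and 4.36. In the outer row the PNFLX samples read 5.19, 4.49, 4.14 and 4.18 and the control samples 4.06, 4.28 and 4.60. With the division undone, the outer spot moved to -0.81 (SE 0.14), while the 4 inner spots lay between -0.06 and 0.27. So for this oligonucleotide the 5 spots were closer together with the division kept. The 3 inner probes named Hsp90ab1 were closer to the row 7 probe with the division undone, but only the row 111 probe shares its chromosome and orientation.

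Other chaperone oligonucleotides were also printed on several spots. Hspe1 differed by -0.03 (SE 0.19) in row 155 and 0.30 (SE 0.67) in row 187, and Hspa14 by 0.08 (SE 0.22) in row 148 and 0.42 (SE 0.28) in row 174. Dnajc4 differed by -0.20 (SE 0.13) in row 90 and -0.05 (SE 0.16) in row 175. With the division undone, the spots of Hspe1 (-0.23 and -0.09) and Hspa14 (-0.06 and 0.04) lay closer together and those of Dnajc4 (-0.15 and -0.46) further apart. Over the whole array 1512 oligonucleotides had at least 2 spots that were each well above background on at least 4 arrays. For 944 of them none of these spots lay in the 20 outermost rows of either end, and for 568 at least 1 did. The range of log2 differences over these spots had a median of 0.16 for the 944 and 0.40 for the 568. Of the 55 tested chaperones, 42 were represented by a spot outside those outermost rows.

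**Figure D4:**
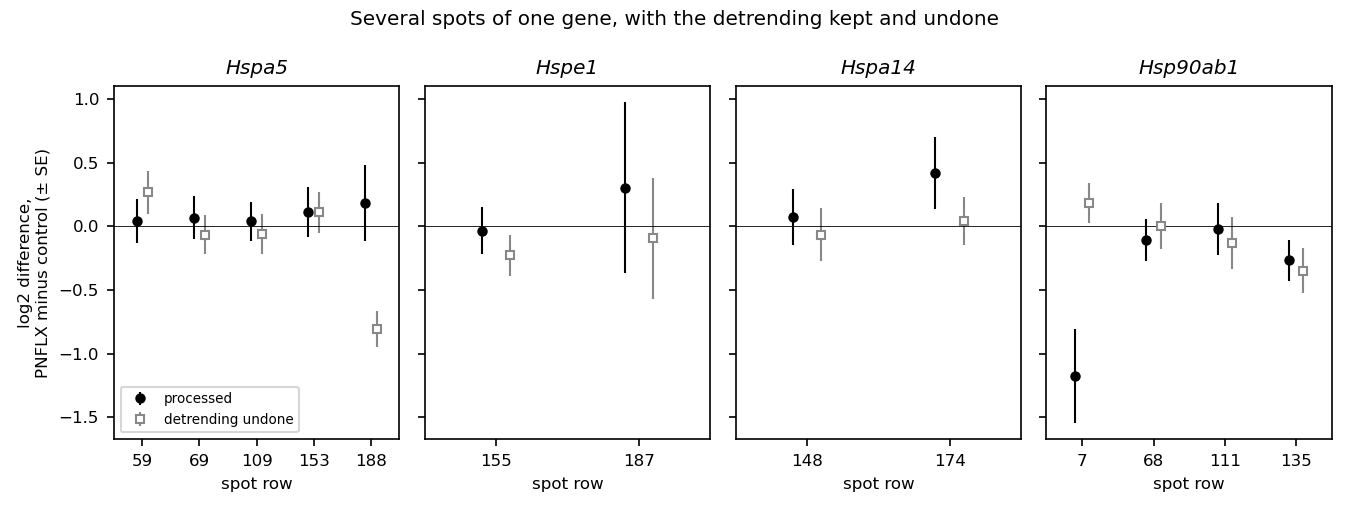
Log2 difference between PNFLX and control with its standard error for every spot of Hspa5, Hspe1 and Hspa14 (1 oligonucleotide each) and of Hsp90ab1 (4 different probes), by spot row, as processed (filled) and with the software's division undone (open). The outermost Hspa5 spot moves to -0.81 and the Hsp90ab1 spot of row 7 to 0.19 when the division is undone.

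None of the 24 J-domain (HSP40) genes passed the test, with 10 higher and 14 lower in PNFLX and a median of -0.03. Of these, 3 reached an unadjusted p of 0.05, 1 higher and 2 lower, against 5.05% and 7.7% of all features. Dnajc5, the cysteine string protein of synaptic vesicles, read -1.85, -1.80, -1.71 and -2.03 in PNFLX and -1.38, -1.37, -1.36 and -1.69 in control. The groups did not overlap, although PNFLX 3 and control 4 were only a little apart. The difference was -0.40 (SE 0.14, limma adjusted p = 0.287), at a spot in row 152. After subtraction of row and column medians it was -0.15 (SE 0.14, adjusted p = 0.687).

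Dnaja3 (Tid1), the HSP40 of mitochondria, lay in row 10 and read -4.69, -2.20, -3.46 and -2.75 in PNFLX, against -1.66, -2.09, -1.76 and -2.07 in control. PNFLX was lower and far more scattered, with a difference of -1.38 (SE 0.48, limma adjusted p = 0.286). It was -0.91 without PNFLX 1 and -0.84 with the division undone. Dnajc9, a J-domain protein that handles histones, read 3.91, 3.50, 3.23 and 3.62 in PNFLX and 3.19, 3.05, 2.87 and 3.30 in control. The difference was 0.46 (SE 0.18, limma adjusted p = 0.329) in row 182, where the median of the row was 0.33, and it was 0.16 after subtraction of row and column medians.

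The stress-inducible partners of HSP70 showed no such difference. Dnajb1 read 1.50, 1.51, 1.61 and 1.75 in PNFLX and 1.73, 1.66, 1.73 and 1.52 in control (difference -0.07, 95% interval -0.35 to 0.21), and Dnaja1 differed by 0.00 (-0.33 to 0.34). Dnajb4 (0.35, SE 0.19), Dnajc10 (0.31, SE 0.21), which reduces disulfides in the endoplasmic reticulum, and Dnajc17 (-0.26, SE 0.14) had adjusted p of 0.472, 0.560 and 0.480. Dnajb11, an HSP40 of the endoplasmic reticulum, lay in row 190 and scattered from -5.45 to -1.65 in PNFLX and from -4.42 to -2.07 in control, with a difference of -0.86 (SE 0.89).

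Of the 7 small heat shock protein genes, 6 were lower in PNFLX, with a median of -0.14, and none passed the test or reached an unadjusted p of 0.05. After subtraction of row and column medians the split was 4 higher and 3 lower (median 0.09). Hspb1 (HSP27, a stress-inducible holdase) read -0.93, -0.99, -0.98 and -0.96 in PNFLX and -0.80, -1.12, -0.71 and -0.65 in control. The PNFLX samples lay inside the range of the controls, with a difference of -0.14 (-0.46 to 0.17, adjusted p = 0.682). Hspb8, which works with Bag3 in selective autophagy, differed by -0.01 (-0.43 to 0.41) and Hspb6 by -0.01 (-0.48 to 0.45). The muscle-enriched forms Hspb2 (-0.24, SE 0.15), Hspb3 (-0.33, SE 0.16) and Hspb7 (-0.16, SE 0.21) and Hspb9 (0.26, SE 0.36), known from testis, completed the family. Hspb3 and Hspb7 were well above background on 3 PNFLX arrays, and Hspb9 on 3 control arrays.

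Hspd1 (HSP60), which forms the folding chamber of the mitochondrial chaperonin, read -0.29, -0.61, -0.49 and -0.40 in PNFLX and -0.52, -1.29, -0.66 and -0.33 in control, and control 2 was the low sample. The difference was 0.25 (-0.23 to 0.74, adjusted p = 0.631). Hspe1 (HSP10), its lid, read 4.67, 4.92, 5.08 and 5.35 in PNFLX and 5.22, 4.89, 5.15 and 4.90 in control, a difference of -0.03 (-0.44 to 0.37). The groups overlapped for both genes of this divergent gene pair. Hspbp1 differed by -0.14 (SE 0.28) and Tmem132a by -0.11 (SE 0.12).

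The 6 genes with an element of at least 3 units, namely Hspa8, Hsph1, Hspd1, Hspe1, Dnaja1 and Cct4, differed by -0.08 to 0.25, with a median of -0.02 and 3 higher and 3 lower. The other 39 tested genes with a matched promoter, Hspa1a, Dnajb1 and Hspb1 among them, had a median of -0.07. The 95% intervals of the 6 genes reached as far as 0.74 for Hspd1 and -0.61 for Cct4, and the intervals of the other 4 lay within those limits.

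**Figure D5:**
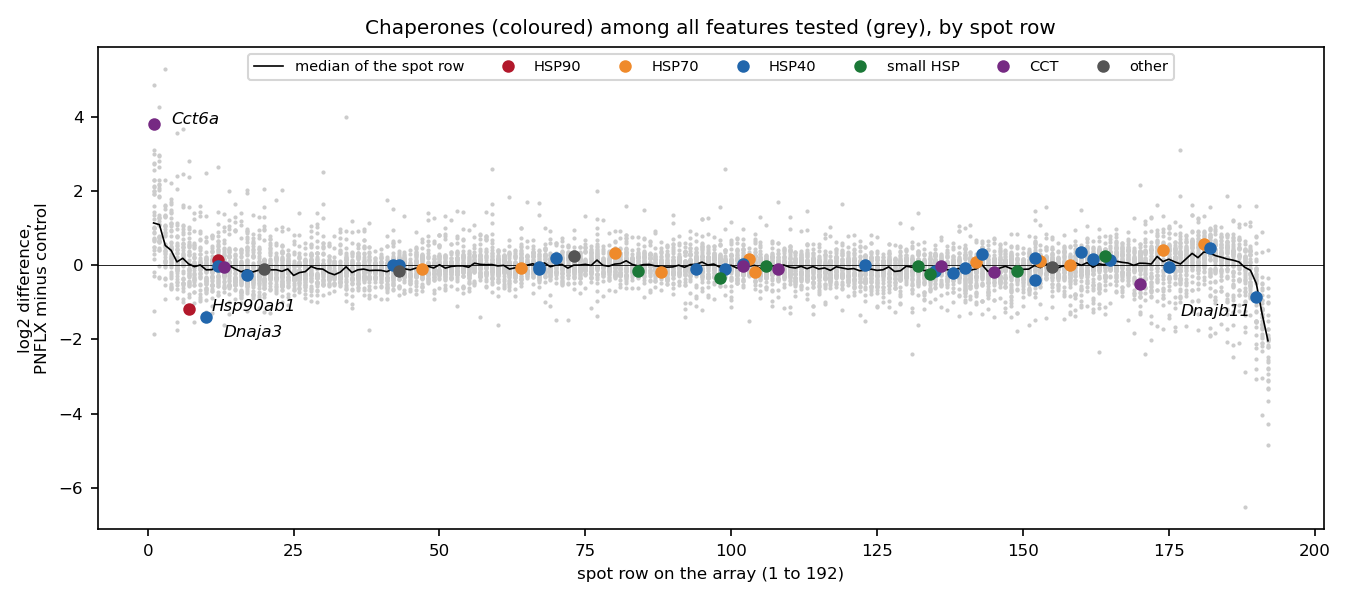
Log2 difference between PNFLX and control against spot row for all 9484 features tested (grey), with the median of each row (line) and the 55 chaperones coloured by family. Cct6a in row 1 lies where the row median rises to 1.14, and Dnajb11 in row 190 where it falls to -0.49.

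The partners of these chaperones gave no call in any of the 10 lists examined. Of 14 HSP90 co-chaperones, 12 were lower in PNFLX, as were 54.4% of all features. Their median was -0.16, and -0.09 after subtraction of row and column medians. An unadjusted p of 0.05 was reached by 2 of the 14, both lower, against 7.7% of all features. Sgta, which binds HSP70 and HSP90 and sorts membrane proteins, read 0.61, 0.68, 0.77 and 0.39 in PNFLX and 1.40, 1.59, 1.1 and 1.04 in control. The groups did not overlap, with a difference of -0.67 (SE 0.17, adjusted p = 0.140). After subtraction of row and column medians the Sgta difference was -0.49 (SE 0.16, limma adjusted p = 0.342). Over the alternative settings it ran from -0.75 to -0.03. Fkbp5, the glucocorticoid-induced immunophilin, read 1.69, 1.71, 1.73 and 2.14 in PNFLX and 1.71, 1.60, -0.91 and 1.47 in control, and the difference of 0.85 (SE 0.55, adjusted p = 0.551) was 0.23 without control 3.

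Hsf1 itself read 1.09, 0.83, 0.90 and 1.17 in PNFLX and 1.34, 1.33, 1.27 and 1.31 in control. Every PNFLX value was below every control value, with a difference of -0.32 (SE 0.13, limma adjusted p = 0.345), in row 26, where the row median was -0.20. Sirt1, a deacetylase that keeps Hsf1 on DNA, differed by 0.95 (SE 0.21, limma adjusted p = 0.102), with every PNFLX value above every control value. It read -3.82, -3.88, -3.31 and -3.41 in PNFLX and -4.22, -4.79, -4.87 and -4.35 in control. Over the alternative settings the Sirt1 difference ran from -0.44 to 1.25 and the Hsf1 difference from -0.40 to 0.20, so both had an alternative of opposite sign. Of the other heat shock factors, Hsf2 differed by 0.41 (SE 0.25).

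Among the remaining lists, medians lay between -0.10 and 0.25 and no gene was called. Of 24 tested genes of the endoplasmic reticulum chaperones and the unfolded protein response, 10 were higher and 14 lower (median -0.05). An unadjusted p of 0.05 was reached by 4 of them, 1 higher and 3 lower, against 5.05% and 7.7% of all features. Uggt1, which checks the folding of glycoproteins, differed by -1.08 (SE 0.29, adjusted p = 0.171). Its groups overlapped, and its faint probe was well above background on 3 PNFLX and 3 control arrays. Sdf2 in row 12 differed by -0.80 (SE 0.29, adjusted p = 0.301). Ero1a, which makes disulfides, differed by 0.43 (SE 0.15, adjusted p = 0.301). Of 9 mitochondrial chaperones and proteases 8 were lower, with a median of -0.08, or -0.01 after subtraction of row and column medians. The 11 co-chaperones and exchange factors of HSP70 split into 5 higher and 6 lower (median -0.09), with Bag3 at 0.28 (SE 0.19) and Bag5 at 0.71 (SE 0.37).

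The 11 prefoldin genes and CCT partners split into 6 higher and 5 lower (median 0.14). The glucocorticoid receptor Nr3c1, a client of HSP90, read 1.69, 1.73, 1.77 and 2.07 in PNFLX and 1.56, 1.54, 1.50 and 1.63 in control, a difference of 0.25 (SE 0.13, adjusted p = 0.462). Of the 12 client kinases, 6 were higher and 6 lower, with Erbb2 in row 6 at 3.67 (SE 1.01, adjusted p = 0.198). Cryab, the alpha-crystallin of glia, differed by 0.46 (SE 0.26, adjusted p = 0.517) on 2 PNFLX and 4 control arrays. Immediate early genes, a list for neuronal activity, split into 9 higher and 11 lower (median -0.07), with Junb at -0.61 (SE 0.20, adjusted p = 0.253) and Nr4a3 in row 185 at 0.54 (SE 0.17, adjusted p = 0.243).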

How the data were processed

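Hippocampal RNA was amplified, given the dye Cy3 and put on Agilent arrays, per the labels' protocols. The deposited scanner files hold the intensity of every spot, made with Feature Extraction 10.5.1.1, per the file headers. That software subtracted background, replaced low values by surrogates and divided each spot by a multiplicative detrending factor; the signal before this division was also deposited. A deposited table of log2 values was the same data centred on each probe's median, within 0.00242.

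Here log2 processed intensity was scaled to each array's 75th percentile over 15207 probes. Outlier-flagged spots (521, 0.428%) were left out, and 11600 probes well above background on at least 4 arrays were kept. The brightest probe per gene gave 9484 features, which were fitted with limma 3.58.1 in R 4.3.3 with Benjamini-Hochberg adjustment over all of them (threshold 0.05). Names were updated through RefSeq gene tables of GRCr8, which matched 14323 probes. Alternatives changed the scaling, background correction, filters, flagged and saturated spots, probe choice, spot position, array weights and replicate block, or left out single samples. The normexp alternative started from scanned brightness and background and added an offset of 50. It thus also left out the software's surrogates and division. The number of arrays limits the precision.

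Members, lists and the rule for named genes were chosen with earlier results of these data known. That rule took every HSP90 and CCT gene, every called member, up to 6 of smallest p per other family with a fixed set of well-known members, and up to 3 per partner list; members in the first or last 5 rows or with discordant probes were added. Dnajc18, Dnaja1 and Dnajc4 were named outside it, after their values were seen. Replicate numbers did not pair the samples (correlations of deviations 0.006 to 0.090). In simulated data, the test called 2.99% of 1.5-fold, 47.8% of 2-fold and 71.2% of 4-fold changes among 9484 features. Protein sequences were not analysed here, and 1 partner gene is not reported here.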

Additional observations from a re-analysis of the deposited data

Results flagged for a closer look

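In 12 of 130 groups of 4 values 1 sample stood far from the other three by Dixon's criterion, which chance gives in about 1 of 20 groups. PNFLX 4 was that sample in 7 of the 12. It read 1.00 for Cct3 (others 1.47 to 1.55), 2.14 for Fkbp5 (1.69 to 1.73), 5.38 for Hsp90aa1 (5.02 to 5.07), 3.14 for Hspa14 (2.17 to 2.24), -0.74 for Hspb6 (-1.54 to -1.46), 2.62 for Lonp1 (3.16 to 3.18) and -2.75 for Tbcd (-2.29 to -2.25). PNFLX 4 also held the lowest value of 20 of the 55 tested chaperones and the highest of 14, and had the lowest array weight, 0.27. Control 1 read -4.42 for Dnajb11 (-2.35 to -2.07) and -3.11 for the client kinase gene Cdk4 (-0.39 to -0.05). Control 3 read -0.91 for Fkbp5 (1.47 to 1.71) and -3.69 for Hsf2 (-2.78 to -2.70). Control 4 read -1.69 for Dnajc5, close to the PNFLX samples, where the other controls read -1.38 to -1.36.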

How the results depend on the processing

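Of the 68 single-gene differences without a call, 45 had an alternative of opposite sign and 3 were called under one: Clu (0.90, division undone), Erbb2 (4.74 with array weights, 4.68 with the division undone) and Sirt1 (1.25 without scaling). The cause was not tested. Cct6a differed by 0.041 to 4.35 in the 21 alternatives that tested it, and lost its call at 0.041 with normexp. As its probe met the filter only through PNFLX arrays, the shared direction does not measure how firm the difference is. The count of called chaperones was 0 with normexp, and 0 where only probes well above background on all arrays, rows without the first and last 5, or rows beyond the 20 outermost of each end were used, since Cct6a is then not tested. It was 1 to 1 without single samples. At unadjusted p under 0.05 the count was 9 without scaling, 3 with normexp, 1 without those 20 rows, and 3 (without control 3) to 6 without single samples. The replicate block, for numbers that did not pair the samples, gave 1 call and 5 at unadjusted p under 0.05 and changed no call. Chaperones lower in PNFLX numbered 6 without scaling (which moved the median of all features to 0.26), 21 after row and column subtraction, and 26 to 37 without single samples. Without scaling the median difference was 0.25 over all chaperones, 0.39 for HSP70, 0.26 for HSP40, 0.15 for small HSP, 0.24 for CCT and 0.23 for the others. With row and column subtraction it was 0.051 over all, 0.18 for HSP70, 0.089 for small HSP and 0.035 for the others; with the smoothed trend 0.026 over all, 0.18 for HSP70, 0.021 for HSP40 and 0.038 for the others. With normexp it was 0.86 for HSP90, -0.18 for HSP40, -0.74 for small HSP, 0.16 for CCT and 0.16 for the others. For HSP90 it was -0.12 with flagged spots kept, 0.061 as a mean over probes, -0.11 without those 20 rows and 0.64 with the division undone, which gave -0.023 for HSP70 and 0.22 for the others. Without single samples it was -0.07 to 0.01 over all, -0.70 to -0.48 for HSP90, 0.06 to 0.12 for HSP70, -0.060 to 0.023 for HSP40, -0.24 to -0.09 for small HSP, -0.16 to -0.032 for CCT and -0.11 to 0.00 for the others. The share of promoters with an element was 13.0% with 3 units in place of 2. Faint probes, Cct6a among them, are limited by signal over background.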
